A study of Mus musculus with 16 samples.

Results

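Primed H3K4me1 regions are stretches of chromatin that carry monomethylation of lysine 4 of histone H3 (H3K4me1) without any of the other histone marks measured beside it. They were taken from the merged H3K4me1 regions deposited for 3 mouse cell lines, and 59937 of 114913 regions (52.2%) met the rule: no base shared with a deposited region of H3K27ac, H3K9ac, H3K4me3 or H3K27me3, and an assigned gene whose start site lay within 200000 bp. The lines were ER-Hoxb8 cells, C57BL/6 mouse myeloid progenitors of the granulocyte-monocyte type immortalised with an estrogen-regulated Hoxb8 and grown with beta-estradiol and stem cell factor. One line carried human P199L-ERG, ERG with a proline changed to leucine, another carried WT-ERG, and the third the empty vector. All were transduced with a lentivirus and sorted for GFP, so each is 1 stable line in which the estrogen-regulated Hoxb8 is also active. Each mark was profiled by chromatin immunoprecipitation and sequencing (ChIP-seq) in 1 library per line, so no value below has a replicate and no test between lines was possible. Intervals given below cover counting error only, at 95%.

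H3K4me1 is written by the methyltransferases MLL3 and MLL4 at enhancers and around promoters. A region with H3K4me1 but without acetylation of H3K27 or H3K9 is commonly called a primed enhancer, one that is open to later activation, while H3K4me3 marks start sites in use and H3K27me3 marks chromatin held silent by Polycomb. In myeloid progenitors many such regions are opened by PU.1, an ETS factor that reads the letters GGAA, and by C/EBP and RUNX factors. ERG is an ETS factor too, and the study asked how its binding to the NCoR-HDAC3 corepressor, a complex that removes acetyl groups from histones, bears on its effects in blood progenitors.

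The central 300 bases of the named regions that differed most between the lines are printed here as examples. They were read from the mm10 genome (GRCm38.p6) on the plus strand, and capitals mark the ETS core AGGAAG or its reverse complement.

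Abo region, chr2:26869799-26870098: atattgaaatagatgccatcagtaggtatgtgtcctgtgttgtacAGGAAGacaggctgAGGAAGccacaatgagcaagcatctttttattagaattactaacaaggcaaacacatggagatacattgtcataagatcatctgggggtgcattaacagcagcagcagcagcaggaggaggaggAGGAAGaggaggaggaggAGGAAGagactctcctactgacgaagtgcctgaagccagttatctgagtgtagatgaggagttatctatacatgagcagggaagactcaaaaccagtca
Tenm4 intron, chr7:96801315-96801614: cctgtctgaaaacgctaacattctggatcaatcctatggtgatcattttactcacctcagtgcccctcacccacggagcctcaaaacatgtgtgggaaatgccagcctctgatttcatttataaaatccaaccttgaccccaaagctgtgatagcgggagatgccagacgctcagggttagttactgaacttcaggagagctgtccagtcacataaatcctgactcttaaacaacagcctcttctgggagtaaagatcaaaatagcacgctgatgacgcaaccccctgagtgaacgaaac
Antxr1 intron, chr6:87238466-87238765: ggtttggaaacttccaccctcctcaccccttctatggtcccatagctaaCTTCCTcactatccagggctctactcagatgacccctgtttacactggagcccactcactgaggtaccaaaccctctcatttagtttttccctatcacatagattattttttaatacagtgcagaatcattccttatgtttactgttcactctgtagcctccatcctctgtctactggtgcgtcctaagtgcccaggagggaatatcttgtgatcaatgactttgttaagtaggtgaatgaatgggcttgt
Xrcc5 and March4 region, chr1:72403750-72404049: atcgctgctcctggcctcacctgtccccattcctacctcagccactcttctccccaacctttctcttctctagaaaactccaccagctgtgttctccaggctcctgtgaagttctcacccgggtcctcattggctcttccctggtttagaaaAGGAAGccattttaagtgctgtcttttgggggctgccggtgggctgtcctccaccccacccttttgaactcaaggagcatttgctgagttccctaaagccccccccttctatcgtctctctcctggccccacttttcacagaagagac
Nkap and Upf3b region, chrX:37116088-37116387: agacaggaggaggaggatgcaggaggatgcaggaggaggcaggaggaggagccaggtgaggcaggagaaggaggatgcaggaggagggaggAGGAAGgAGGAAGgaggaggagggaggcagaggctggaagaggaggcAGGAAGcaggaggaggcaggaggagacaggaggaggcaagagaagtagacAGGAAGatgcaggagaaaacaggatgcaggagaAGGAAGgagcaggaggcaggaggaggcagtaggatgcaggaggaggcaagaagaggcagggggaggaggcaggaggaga

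The Abo region lies between genes, 4969 bp from the start site of Abo, the glycosyltransferase of the ABO blood group, and held 74 reads in P199L-ERG, 143 in WT-ERG and 10 in the empty vector. The intron of Tenm4, a teneurin adhesion protein, showed the opposite order for WT-ERG, with 99 reads in P199L-ERG, 26 in WT-ERG and 212 in the empty vector, and its window held no AGGAAG. The intron of Antxr1, an anthrax toxin receptor, had 173, 112 and 27 reads in P199L-ERG, WT-ERG and the empty vector. The region between Xrcc5, a DNA repair factor, and March4, a ubiquitin ligase, had 33, 38 and 123 reads in the same order. The region beside Nkap and Upf3b held 42 reads in P199L-ERG, 268 in WT-ERG and 54 in the empty vector, and 88% of the plus-strand letters of its window were purines (A or G).

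A second set of windows shows purine repeats, which were frequent among regions called in WT-ERG alone in the results that follow. Both of the named regions that hold such a repeat are shown with 1 of the regions assigned to Ly6c2, and capitals mark the repeat itself. Where a region is shorter than 300 bases the window runs past its ends.

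Gm14496 and Polr3k region, chr2:181929065-181929364: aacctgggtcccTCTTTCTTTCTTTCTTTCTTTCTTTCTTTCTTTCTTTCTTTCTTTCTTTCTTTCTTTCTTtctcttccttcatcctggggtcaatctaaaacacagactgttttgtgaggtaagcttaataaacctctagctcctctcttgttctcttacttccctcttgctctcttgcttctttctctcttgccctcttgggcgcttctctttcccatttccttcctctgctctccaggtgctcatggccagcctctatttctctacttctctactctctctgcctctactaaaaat
Caap1 intron, chr4:94515567-94515866: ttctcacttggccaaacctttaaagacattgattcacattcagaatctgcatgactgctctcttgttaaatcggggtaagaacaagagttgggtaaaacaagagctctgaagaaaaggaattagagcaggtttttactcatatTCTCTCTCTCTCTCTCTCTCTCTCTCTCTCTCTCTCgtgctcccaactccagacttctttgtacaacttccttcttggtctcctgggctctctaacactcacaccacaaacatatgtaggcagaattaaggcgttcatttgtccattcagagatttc
Ly6c1 and Ly6c2 region, chr15:75088796-75089095: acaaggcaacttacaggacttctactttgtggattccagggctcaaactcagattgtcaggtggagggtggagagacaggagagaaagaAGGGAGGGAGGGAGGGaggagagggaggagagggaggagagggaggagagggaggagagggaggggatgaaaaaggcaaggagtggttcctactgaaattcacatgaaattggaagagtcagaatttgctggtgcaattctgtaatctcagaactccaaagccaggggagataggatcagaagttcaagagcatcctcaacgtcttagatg

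The deposited regions on which these windows are centred held 22, 107 and 12 reads (the region between Gm14496 and Polr3k), 14, 98 and 17 reads (the intron of Caap1) and 20, 62 and 17 reads (the region near the surface antigen genes Ly6c1 and Ly6c2) in P199L-ERG, WT-ERG and the empty vector. In each of them the WT-ERG library was the highest by more than 1.5-fold. For the first 2 this follows from the choice, since they were named for a large ratio between WT-ERG and another line. The last is 1 of the 3 regions assigned to Ly6c2 that hold such a repeat.

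Primed regions were short and weak beside the rest of the H3K4me1 regions. Their median length was 625 bp (quartiles 294 and 1114 bp), against 1954 bp for the other H3K4me1 regions, and they covered 50.9 of 221 Mb. The median primed region held 23.3 normalized reads in P199L-ERG, 25.4 in WT-ERG and 23.0 in the empty vector, against 110, 119 and 110 in the other regions. Per kb of length the gap was smaller, with medians of 40.1, 43.0 and 39.1 normalized reads in P199L-ERG, WT-ERG and the empty vector, against 56.8, 61.0 and 58.2 in the others. Although they made up 52.2% of the regions, they held 14.8% of the reads inside H3K4me1 regions in P199L-ERG, 14.9% in WT-ERG and 13.5% in the empty vector.

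Most primed regions lay inside or between genes and far from start sites. Positions were read at the midpoint of each region, against protein-coding genes only. Of all primed regions, 52.7% lay in introns, 39.6% between genes and 7.69% in exons, against 50.2%, 37.1% and 12.7% of the other H3K4me1 regions. The median distance to the nearest assigned start site was 24110 bp. They were not isolated from active chromatin: the median gap to the nearest H3K27ac region was 6909 bp, 41.0% had such a region within 5 kb, and 3091 within 1 kb. The gaps to H3K9ac and H3K4me3 were of like size (medians of 10776 and 10594 bp), while the nearest H3K27me3 region was a median of 79022 bp away. The remaining 54976 H3K4me1 regions included 12617 with H3K27ac only, 3042 with H3K27ac and H3K9ac without H3K4me3, 31218 with H3K4me3, 5430 with H3K27me3 and 4054 that were unmarked but further than 200000 bp from any start site. A region can fall into more than 1 of these groups, so they do not add up to the total.

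Strong primed regions existed as well. The strongest lay in an intron of Mical3, a cytoskeletal monooxygenase, and had 1180 reads in P199L-ERG, 830 in WT-ERG and 1224 in the empty vector. An intron of Cmklr1, the receptor of the chemoattractant chemerin, had 1081, 847 and 1141 reads, and an intron of Prex1, a Rac activator of neutrophils, 814, 628 and 1048 reads in the same order. The longest, 15955 bp beside Sema4b and Idh2, had 993, 928 and 961 reads. In WT-ERG over the empty vector these strong regions stayed within 1.5-fold: the log2 ratio was -0.53 (-0.68 to -0.39) for the Prex1 intron, -0.35 for the Mical3 intron, -0.22 for the Cmklr1 intron and 0.16 for the Sema4b region.

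The labels name the cells myeloid progenitors, and the marks at defining genes fit that name. All 9 progenitor markers (among them Mpo, Elane, Kit, Cd34, Cebpa and Spi1) had both an H3K4me3 and an H3K27ac region within 5 kb of their start, with summed H3K4me3 of 31501, 32908 and 33680 normalized reads in P199L-ERG, WT-ERG and the empty vector. Of 3 T cell markers 1 had an H3K4me3 region (summed 16.1, 16.1 and 6.24), of 3 endothelial markers 1 (Pecam1, 458, 276 and 239) and of 3 fibroblast markers 2 (234, 314 and 371), while Pax5, Cd3e, Cd8a, Cdh5 and Kdr were at 0. The B cell marker Cd79a had 71.1, 84.3 and 102 normalized H3K4me3 reads. Reads inside H3K4me1 regions numbered 17144801 in P199L-ERG, 14508786 in WT-ERG and 17004321 in the empty vector, within a range of 768125 to 22278560 over the 15 libraries of the 5 marks. The median primed region thus rested on 25, 22 and 23 reads, so that single weak regions could not be told apart at this depth.

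The authors also recorded in which library each region was called as a peak, and primed regions were mostly not called in every line. Of the primed regions 21474 (35.8%) were called in all 3 lines, against 77.9% of the other H3K4me1 regions. Regions called in WT-ERG alone were the next largest class with 10611 (17.7%), followed by 7830 called in P199L-ERG alone (13.1%) and 6456 called in the empty vector alone (10.8%). Of those called in a pair of lines, 7384 (12.3%) were shared by P199L-ERG and the empty vector, 4038 (6.74%) by P199L-ERG and WT-ERG and 2144 (3.58%) by WT-ERG and the empty vector.

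**Figure D1:**
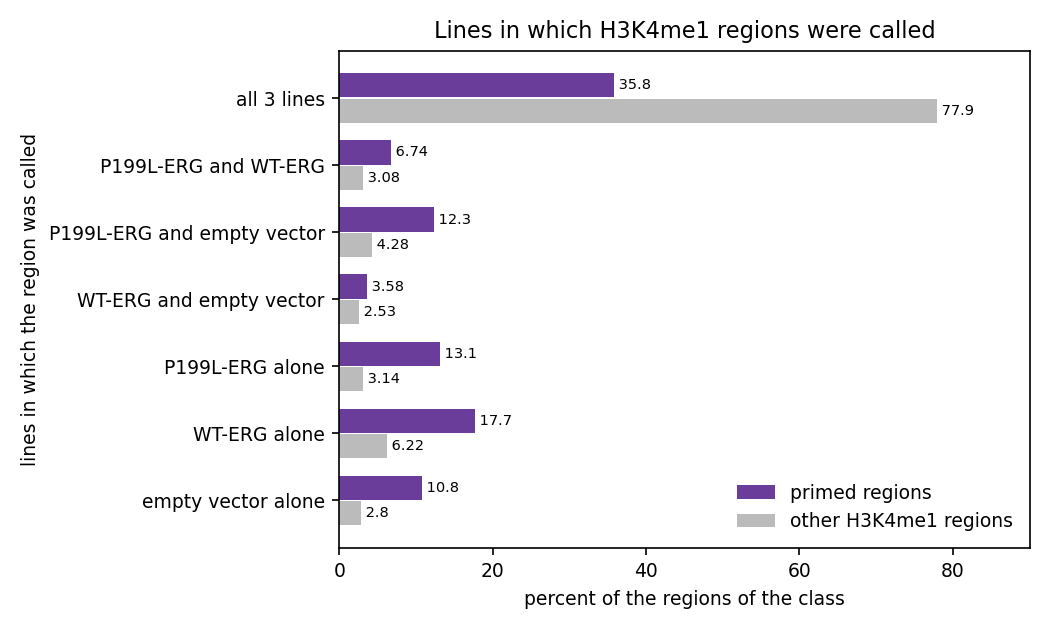
Percent of primed regions (purple) and of the other H3K4me1 regions (grey) by the lines in which the region was called, with 1 library per line. Primed regions were called in all 3 lines in 35.8% of cases, against 77.9% of the other regions, and in WT-ERG alone in 17.7%, against 6.22%.

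The classes differed in strength and length. Regions called in all 3 lines had a median length of 1213 bp and medians of 59.6, 61.1 and 56.9 normalized reads in P199L-ERG, WT-ERG and the empty vector. Those called in WT-ERG alone were 253 bp long, with medians of 5.59 in P199L-ERG, 20.8 in WT-ERG and 5.99 in the empty vector, and those called in P199L-ERG alone were 370 bp long, with medians of 16.8, 9.23 and 9.98. The regions shared by both ERG lines had medians of 28.9 in P199L-ERG and 35.7 in WT-ERG against 17.0 in the empty vector. The calling rule itself sets part of these orders, since a region must pass in a library to be counted as called there.

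Primed regions called in WT-ERG alone often held purine repeats. A purine repeat was defined, after these values were seen, as 8 or more copies of AG, 6 or more of AAG or AGG, or 4 or more of AAAG, AAGG or AGGG on either strand of the central 300 bases. Such a repeat was found in 5757 primed regions (9.61%), against 3.84% of the other H3K4me1 regions. Of the primed regions called in WT-ERG alone 4067 (38.3%) held one, whereas the share was 0.715% of those called in P199L-ERG alone and 1.04% of those called in the empty vector alone. The excess was not limited to primed regions. Of the regions called in WT-ERG alone, 18.4% of the other H3K4me1 regions and 33.5% of all H3K4me1 regions held a purine repeat. AG repeats were the most frequent unit in the WT-ERG class (17.3%), followed by AAGG (15.7%) and AGGG (8.30%). AC repeats, which are not made of purines, stood at 6.28% of the WT-ERG class and 1.84% of the P199L-ERG class, and runs of A at 4.86% and 3.30%.

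**Figure D2:**
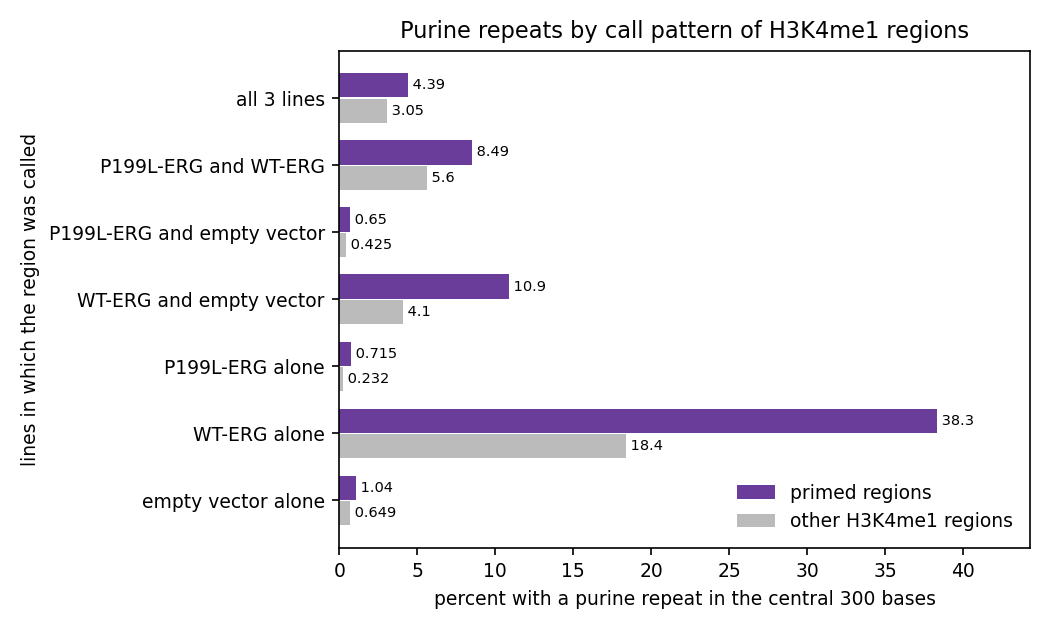
Percent of primed regions (purple) and of the other H3K4me1 regions (grey) that hold a purine repeat in the central 300 bases, by the lines in which the region was called. The share was 38.3% of primed regions called in WT-ERG alone, against 0.715% for P199L-ERG alone and 1.04% for the empty vector alone. It was 18.4% of the other H3K4me1 regions called in WT-ERG alone.

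The regions of the other marks did not show such a share in the WT-ERG line. Of the regions called in WT-ERG alone, 1.38% held a purine repeat for H3K27ac, 1.54% for H3K9ac, 2.11% for H3K4me3 and 2.78% for H3K27me3. The share over all H3K4me1 regions called in WT-ERG alone was 33.5%. For H3K27ac and H3K9ac the highest share was instead in the regions called in the empty vector alone (6.90% and 4.04%). Primed regions with a purine repeat had a median length of 266 bp, and medians of 5.59 normalized reads in P199L-ERG, 25.4 in WT-ERG and 5.99 in the empty vector. They held 4.06% of the reads of all primed regions in P199L-ERG, 8.98% in WT-ERG and 4.12% in the empty vector, and they were assigned to 5924 genes. What produced reads over these repeats was not tested, and the counts over all primed regions and over all genes are also given without them below.

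Normalized reads were then compared between the lines over all primed regions, with a pseudocount of 4.29 normalized reads added to both values. The median log2 ratio was close to 0 in each pair: 0.06 for WT-ERG over the empty vector, 0.03 for P199L-ERG over the empty vector and 0.02 for P199L-ERG over WT-ERG. Higher by at least 1.5-fold in WT-ERG than in the empty vector were 18041 primed regions (30.1%), beside 25.3% of all H3K4me1 regions, and lower were 13370 (22.3%), beside 17.2% of all. In P199L-ERG over the empty vector the counts were 10228 higher (17.1%, beside 12.8%) and 8876 lower (14.8%, beside 12.5%). In P199L-ERG over WT-ERG they were 12235 higher (20.4%, beside 14.5%) and 15882 lower (26.5%, beside 23.4%). Primed regions were thus past 1.5-fold in both directions somewhat more often than H3K4me1 regions at large, and they also held fewer reads each.

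Fewer regions passed once counting error was taken into account. The whole counting interval lay past 1.5-fold upward in WT-ERG over the empty vector in 7854 primed regions (13.1%, beside 10.6% of all) and downward in 2291 (3.82%, beside 3.1%). In P199L-ERG over the empty vector it did so in 1046 upward (1.75%, beside 1.35%) and 723 downward (1.21%, beside 1.2%). In P199L-ERG over WT-ERG the numbers were 984 upward (1.64%, beside 1.16%) and 6804 downward (11.4%, beside 10.1%). Both comparisons with WT-ERG had more regions past this bound on the side where WT-ERG was higher. Of these primed regions 3273 of 7854 (41.7%) and 3318 of 6804 (48.8%) held a purine repeat, beside 32.8% and 34.9% of all H3K4me1 regions on the same sides. On the opposite side 8 of 2291 and 1 of 984 primed regions held one, beside 0.393% and 0.150% of all. In P199L-ERG over the empty vector 37 of the 1046 higher regions (3.54%) held one, beside 3.23% of all.

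Without the regions that hold a purine repeat, the counts at 1.5-fold were close to balanced. Of the remaining 54180 primed regions, 13093 were higher in WT-ERG over the empty vector (24.2%, beside 21.5% of all H3K4me1 regions without a repeat) and 13296 were lower (24.5%, beside 18.4%). The median log2 ratio was -0.05. P199L-ERG over WT-ERG had 12194 higher (22.5%, beside 15.5%) and 10884 lower (20.1%, beside 19.4%) and a median of 0.11. P199L-ERG over the empty vector changed little, with 9505 higher (17.5%, beside 12.9%) and 8142 lower (15.0%, beside 12.6%). The stronger bound still leaned toward WT-ERG, among primed regions and among all H3K4me1 regions alike. Without repeats the whole interval lay past 1.5-fold upward in 4581 and downward in 2283 of 54180 primed regions in WT-ERG over the empty vector. Among all 107045 H3K4me1 regions without a repeat it did so in 8199 and 3549. In P199L-ERG over WT-ERG the counts were 983 upward and 3486 downward for primed regions, and 1328 and 7584 for all. Among the primed regions with a repeat, 85.9% were higher and 1.29% lower in WT-ERG than in the empty vector. In P199L-ERG against WT-ERG 0.712% stood higher and 86.8% lower, whereas P199L-ERG and the empty vector were balanced (12.6% higher and 12.7% lower). The shares over all H3K4me1 regions with a repeat are not given here.

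**Figure D3:**
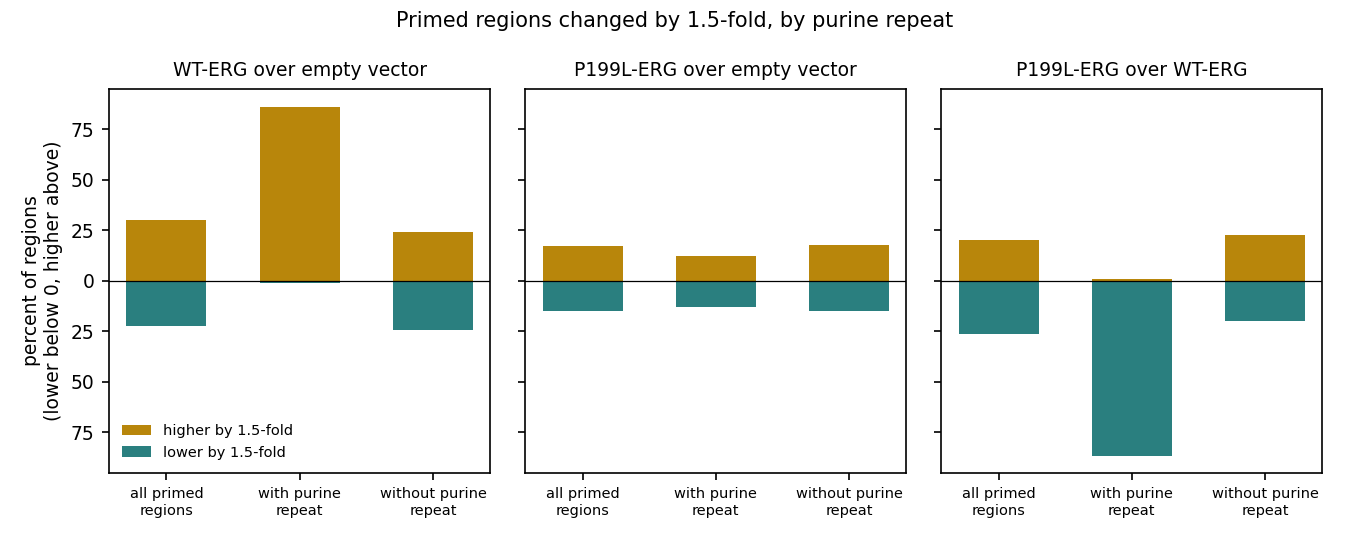
Percent of primed regions higher (above 0) and lower (below 0) by at least 1.5-fold in normalized H3K4me1 reads for each pair of lines, over all primed regions and over those with and without a purine repeat. With a repeat 85.9% were higher in WT-ERG than in the empty vector and 12.6% did so for P199L-ERG over the empty vector.

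The ratios also followed base composition. Only the primed regions were split into 10 groups of equal size by GC content, so the trend is not compared with that of other H3K4me1 regions. In the lowest group (median 39.8%) the median log2 ratio was 0.98 for WT-ERG over the empty vector and 0.38 for P199L-ERG over the empty vector. It was -0.30 and -0.24 in the group next to the highest, at a GC content of 54.2%. In the highest group (58.0%) the ratio of WT-ERG was back above 0 (0.11), whereas that of P199L-ERG was lowest there (-0.41). P199L-ERG over WT-ERG was therefore lowest at both ends (-0.52 and -0.52) and highest in the middle groups (0.21). After the ratios were centred within groups of like GC content and signal, 14850 primed regions were higher and 12912 lower in WT-ERG than in the empty vector, 8185 and 7997 in P199L-ERG over the empty vector, and 11419 and 13496 in P199L-ERG over WT-ERG. Whether base composition or the lines themselves set the trend cannot be told apart with 1 library per line.

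**Figure D4:**
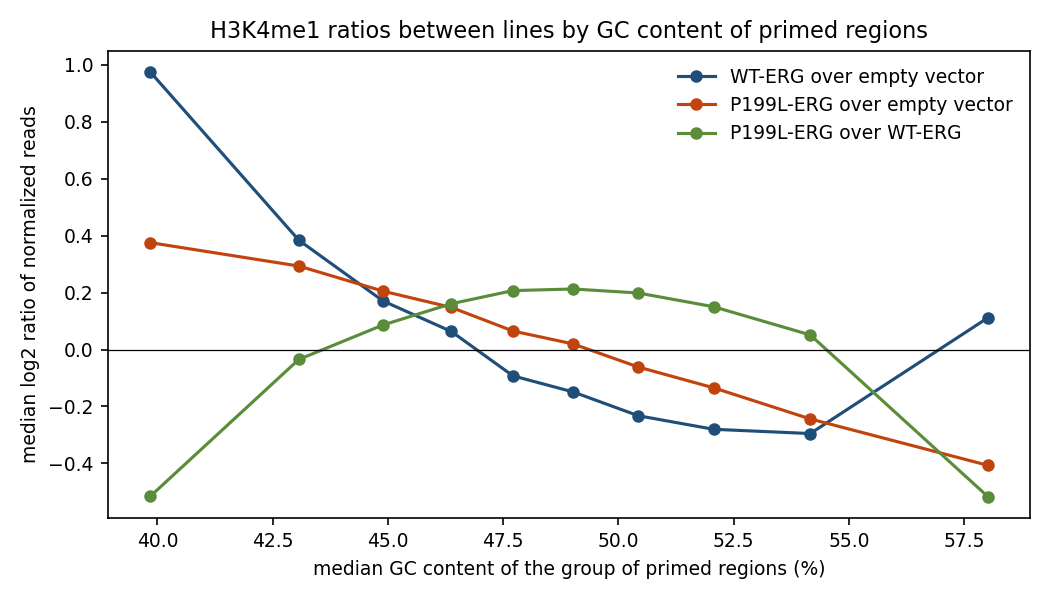
Median log2 ratio of normalized H3K4me1 reads (vertical axis) against the median GC content in percent of 10 equal groups of the primed regions (horizontal axis), for each pair of lines. WT-ERG over the empty vector runs down to -0.30 at 54.2% GC, against 0.98 at 39.8% GC, and is 0.11 at 58.0% GC.

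Short letters that blood transcription factors are known to read were counted in the central 300 bases on both strands. The ETS core AGGAAG occurred in 47.5% of primed regions, against 43.3% of all H3K4me1 regions, 41.1% of those with H3K27ac only, 35.8% of those with H3K4me3 and 51.6% of the unmarked regions further than 200000 bp from any start site. Its letters also lie inside AAGG repeats. Among primed regions whose interval lay past 1.5-fold upward in WT-ERG over the empty vector 59.2% held AGGAAG, and 43.8% of those past it downward did. Without purine repeats the first share was 47.2%, beside 44.9% of all primed regions without a repeat, so the ETS core was about as frequent there as in primed regions at large.

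Other letters differed between the sides without being part of a purine repeat. The E-box CAGCTG occurred in 9.46% of the primed regions past the bound upward and 24.5% of those past it downward in WT-ERG over the empty vector, against 16.8% of all primed regions and 16.6% of all H3K4me1 regions. In P199L-ERG over the empty vector it occurred in 11.8% and 22.3%. The GATA letters AGATAA went the other way, with 19.4% upward and 8.16% downward in P199L-ERG over the empty vector, against 13.5% of all primed regions and 13.5% of all H3K4me1 regions. CAGCTG is richer in G and C than AGATAA, and the regions past the bound upward had a median GC content of 45.3% in WT-ERG and 45.0% in P199L-ERG, against 50.9% and 53.0% downward. The part of base composition in these motif shares was not tested.

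Primed regions were assigned to 15413 genes, with a median of 4 regions per gene and 10 or more regions for 3349 genes. The gene with the most was Hmga2, a chromatin protein of stem and tumour cells, with 56 regions, followed by Zfp704 (52), Jarid2, a partner of Polycomb (51), Maml3, a coactivator of Notch (48), Cacna1b (47), Pcgf5 (47), Efna5 (46), Kit, the receptor of stem cell factor (46), Armc2 (45) and Gnaq (45). For each gene the normalized reads were summed over its primed regions. Hmga2 had 2631 normalized reads in P199L-ERG, 3179 in WT-ERG and 2131 in the empty vector, a WT-ERG over empty vector log2 ratio of 0.58 (interval 0.50 to 0.66). Kit had 1978, 2166 and 1970 normalized reads in the same order, and all 10 genes stayed within 1.5-fold in every pair.

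Over all genes with a primed region, 3150 (20.4%) were higher and 1772 (11.5%) lower by at least 1.5-fold in WT-ERG than in the empty vector. The counts were 1136 (7.37%) and 1170 (7.59%) in P199L-ERG over the empty vector, and 1149 (7.45%) and 2329 (15.1%) in P199L-ERG over WT-ERG. Without purine repeats they were 2378 and 2141, 1152 and 1192, and 1438 and 1625 of 15138 genes, and after GC adjustment 2320 and 1585, 845 and 833, and 1138 and 1773 of all genes. The genes named next have the largest ratios among genes with 3 or more primed regions and enough signal, so their size is a description.

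The single regions below were named as the 3 largest increases or decreases of a pair among the strongest primed regions. Their large ratios follow from that choice and are no check on the gene counts above. The Abo region had a log2 ratio of 3.57 (3.13 to 5.14) in WT-ERG and 2.36 (1.83 to 3.91) in P199L-ERG over the empty vector, and the Antxr1 intron 2.09 (1.64 to 2.92) and 2.40 (1.99 to 3.22). A region 4404 bp from Stfa2, a stefin of a multigene family of protease inhibitors, had 18 reads in P199L-ERG, 108 in WT-ERG and 7 in the empty vector, and was highest in WT-ERG. Among the decreases, a region assigned to Zfp648 and Glul had 115 reads in P199L-ERG and 46 in WT-ERG, against 285 in the empty vector, and an intron of Nrg2, a neuregulin, 36 and 19 against 121. In the Tenm4 intron P199L-ERG was above WT-ERG by 1.49 (0.99 to 2.30) and below the empty vector by 1.16 on the log2 scale, and in a region between Atf3, a stress factor, and Nenf it had 92 reads, against 26 in WT-ERG and 123 in the empty vector. An intron of Tctex1d1 had 128, 36 and 111 reads in P199L-ERG, WT-ERG and the empty vector, so that there only WT-ERG was low.

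Il10ra and Pcdh7 were named among the 8 largest increases over the empty vector for WT-ERG and again for P199L-ERG. Abo, Lcn4, Galnt18, Lmo1, Clnk and Try4 were named for P199L-ERG only. Il10ra, the ligand-binding chain of the interleukin 10 receptor, had 549 normalized reads in P199L-ERG and 679 in WT-ERG, against 170 in the empty vector, over 9 regions. Its log2 ratio was 1.97 (1.75 to 2.26) in WT-ERG and 1.67 (1.45 to 1.95) in P199L-ERG over the empty vector, and adjusting for GC content left it at 1.95 and 1.58. The main region, in an intron of the neighbouring gene BC049352, had 107 reads in P199L-ERG, 111 in WT-ERG and 18 in the empty vector. Abo had 422, 484 and 135 normalized reads in P199L-ERG, WT-ERG and the empty vector over 10 regions, 9 of which are also assigned to Lcn4, a lipocalin (399, 377 and 137).

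Pcdh7, a protocadherin, had 636 normalized reads in P199L-ERG and 928 in WT-ERG, against 204 in the empty vector, over 25 regions, of which 23 were higher in WT-ERG and 18 in P199L-ERG. Its log2 ratios of 2.17 and 1.62 were 1.41 and 1.21 after GC adjustment, and that of P199L-ERG was 1.63 without its 5 regions with a purine repeat. Galnt18, an enzyme that starts O-linked sugar chains, had 1151 and 1247 against 453, and Lmo1, a LIM-only cofactor known as a T cell oncogene, 862 and 1044 against 360. Clnk, an adaptor of immune receptors, had 332 and 398 against 120, and Try4, a trypsin, 317 and 324 against 133. In all of these both ERG lines stood above the empty vector by more than their counting intervals. They were named as the 8 largest increases of P199L-ERG over the empty vector, so in that pair this follows from the choice. WT-ERG was compared with the same empty vector library.

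Other gains were larger in WT-ERG than in P199L-ERG. Mff, a mitochondrial fission factor, had 222 normalized reads in P199L-ERG and 361 in WT-ERG, against 42.9 in the empty vector, the largest ratio of WT-ERG (2.95, interval 2.61 to 3.57; 2.42 after GC adjustment). Its 4 regions are shared with Col4a3, a chain of type IV collagen. Cpa3, the carboxypeptidase of mast cells, had 272, 554 and 130 normalized reads in P199L-ERG, WT-ERG and the empty vector over 13 regions, all 13 of them higher in WT-ERG, and its log2 ratio of 2.06 was 1.19 after GC adjustment. Lilr4b, a leukocyte receptor of a multigene family, had 206, 394 and 97.8, and Kcnj16, a potassium channel, 250, 505 and 127, with WT-ERG log2 ratios of 1.97 and 1.96 that were 1.26 and 1.27 after GC adjustment. The Cpa3 and Pcdh7 regions were poor in GC (means of 40.6% and 41.7%), the range in which ratios over all primed regions were highest.

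The largest losses in WT-ERG were shared in part by P199L-ERG. Fcnb, ficolin B, a lectin made by neutrophil precursors, had 627 normalized reads in P199L-ERG and 476 in WT-ERG, against 1323 in the empty vector, over 19 regions. Of these 17 were lower in WT-ERG and 15 in P199L-ERG, none was higher, and none held a purine repeat. The log2 ratio was -1.47 (-1.64 to -1.31) in WT-ERG and -1.07 (-1.21 to -0.94) in P199L-ERG over the empty vector, and -1.28 and -0.94 after GC adjustment. P199L-ERG was above WT-ERG by 0.39 (0.22 to 0.58).

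The same order held for a cluster on chromosome 1 and another on chromosome 6. Glul, glutamine synthetase, had 493 normalized reads in P199L-ERG and 298 in WT-ERG, against 916 in the empty vector, and 6 of its 13 regions are also assigned to Zfp648. Uroc1, an enzyme of histidine breakdown, had 271 and 160 against 509, with its 3 regions shared with Zxdc. For both genes P199L-ERG lay between the other lines, with log2 ratios over WT-ERG of 0.72 (0.51 to 0.95) and 0.74 (0.46 to 1.06). Btbd16 and Acpp, prostatic acid phosphatase, were instead low in both ERG lines alike: Btbd16 had 114 and 107 against 306, and Acpp 119 and 116 against 283. Epx, the eosinophil peroxidase, had 204 in P199L-ERG and 191 in WT-ERG, against 431 in the empty vector.

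**Figure D5:**
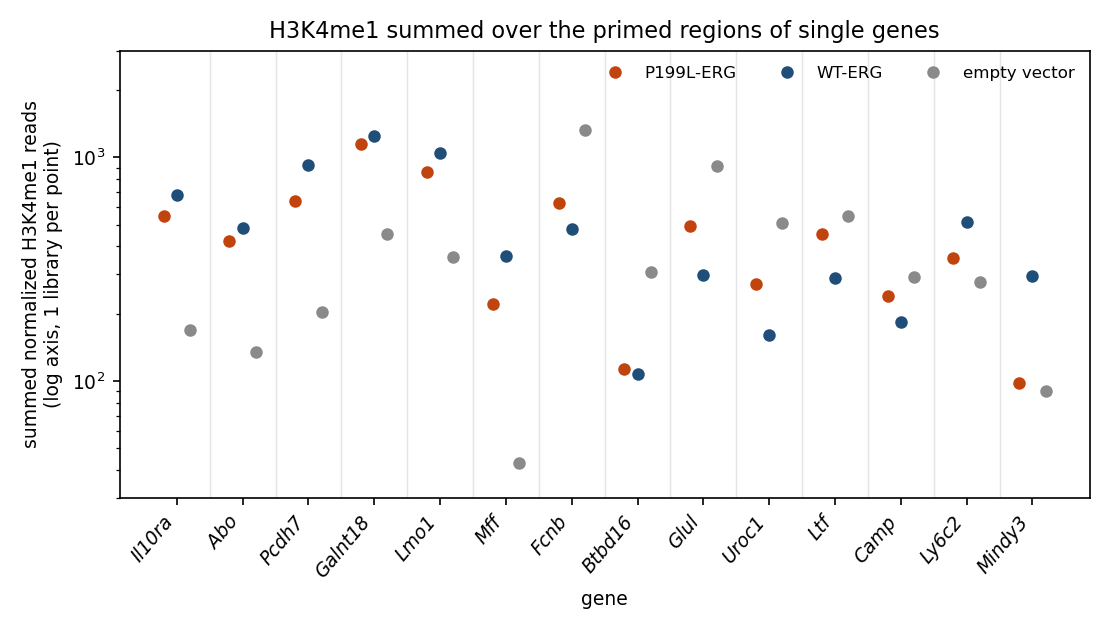
Summed normalized H3K4me1 reads over the primed regions of single genes (log axis) in P199L-ERG (orange), WT-ERG (blue) and the empty vector (grey), 1 library per point and no error bars. Il10ra had 549 and 679 in the ERG lines against 170 in the empty vector, and Fcnb 627 and 476 against 1323.

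Genes for which P199L-ERG and WT-ERG differed most fell into a group highest in WT-ERG and a group lowest in WT-ERG. Nkap, an RNA-binding regulator of transcription, had 90.3 normalized reads in P199L-ERG, 402 in WT-ERG and 129 in the empty vector. This sum rests largely on the purine-rich window printed above, which does not meet the repeat definition, and its log2 ratio of -2.10 for P199L-ERG over WT-ERG was -1.24 after GC adjustment. Cd53, a tetraspanin of leukocytes, had 143, 375 and 111, Chac1, an enzyme of glutathione breakdown, 149, 390 and 144, and Crbn, cereblon, 164, 407 and 140 in the same order. Mindy3, a deubiquitinase, had 97.8, 296 and 89.8, but 5 of its 8 regions held a purine repeat, and without them its log2 ratio for P199L-ERG over WT-ERG was 0.34, against -1.56 with them.

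The genes lowest in WT-ERG had smaller ratios and no purine repeats. Gak, a kinase of clathrin uncoating, had 396 normalized reads in P199L-ERG, 221 in WT-ERG and 379 in the empty vector, and Elk4, itself an ETS factor, 539, 303 and 566. Tbpl1 had 294, 166 and 279, Mcm5, a subunit of the replicative helicase, 318, 186 and 245, and Il17rb, a cytokine receptor, 461, 273 and 463. In each of them P199L-ERG stood above WT-ERG by 0.74 to 0.83 on the log2 scale, and for Gak, Elk4, Tbpl1 and Il17rb it differed from the empty vector by at most 0.07.

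Genes of the granulocytic and monocytic programmes did not share 1 direction. Ltf, lactoferrin of the secondary granules, had 454 normalized reads in P199L-ERG and 289 in WT-ERG, against 549 in the empty vector (WT-ERG over empty vector -0.91, interval -1.14 to -0.71). Camp, the cathelicidin stored beside it, had 240 and 185 against 292, a log2 ratio of -0.65 in WT-ERG, and of -1.28 without the 1 of its 3 regions that holds a purine repeat. Csf3r, the receptor of the granulocyte growth factor, had 341 and 368 against 261, and Itgam, the CD11b integrin chain, 660 and 833 against 581, ratios of 0.49 and 0.52 in WT-ERG. Cebpe, which drives secondary granule genes, had 351 and 313 against 391. Cebpa, the master factor of this lineage, had 636 and 690 against 725, and Mpo, myeloperoxidase of the primary granules, 185 and 178 against 160, all within 1.5-fold.

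Ly6c2, a surface antigen of monocytes and their precursors, had 356 normalized reads in P199L-ERG and 515 in WT-ERG, against 277 in the empty vector, over 5 regions. Its ratio was 0.88 (0.67 to 1.11) in WT-ERG over the empty vector and -0.53 in P199L-ERG over WT-ERG. Of its regions 3 held a purine repeat, and without them the ratios were -0.46 and 0.75, so both directions turned. All its regions are also assigned to the near-identical Ly6c1, and the authors kept only reads that aligned to 1 place. Among the other monocyte genes Csf1r, the receptor of M-CSF, had 1302 and 1041 against 1305, Irf8 had 958 and 1101 against 970, and Clec12a, an inhibitory lectin receptor, 153 and 148 against 135.

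Of 24 stem and progenitor genes with a primed region 4 were higher and 1 lower by 1.5-fold in WT-ERG over the empty vector, beside 20.4% and 11.5% of all genes. Without purine repeats 3 and 2 were so, beside 2378 and 2141 of 15138 genes. Cd34 had 504 normalized reads in P199L-ERG and 598 in WT-ERG, against 395 in the empty vector, and Meis1, a partner of HOX proteins, 569 and 692 against 460. Their WT-ERG ratios were 0.59 (0.41 to 0.79) and 0.58 (0.41 to 0.77), and 0.59 and 0.26 after GC adjustment. Gata2 had 275 and 363 against 256, Itga2b, the CD41 integrin chain, 350 and 361 against 260, and mouse Erg 408 and 482 against 399. Others lay below the empty vector in WT-ERG, among them Cd93 (1150 and 925 against 1056) and the ETS factor Fli1 (358 and 293 against 370), both within 1.5-fold. Spi1 and Hoxa9 had H3K4me1 regions but none that was primed, and Elane had no H3K4me1 region.

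The gene lists, written from general knowledge, were read beside the shares of 20.4% higher and 11.5% lower over all genes in WT-ERG over the empty vector. List counts after GC adjustment were read beside 2320 higher and 1585 lower of 15413 genes. Those without purine repeats were read beside 2378 and 2141 of 15138 genes. Of 28 late neutrophil genes with a primed region 10 were higher and 6 lower, with a median log2 ratio of 0.46. S100a9 had 25.1 normalized reads in P199L-ERG and 39.2 in WT-ERG, against 7.98 in the empty vector, a log2 ratio of 1.83 in WT-ERG that was 0.87 after GC adjustment. Of 26 monocyte and macrophage genes 10 were higher and 2 lower (median 0.24), and 5 and 2 after GC adjustment, among them the scavenger and mannose receptors Msr1 (161 and 255 against 105) and Mrc1 (237 and 347 against 142). Of 9 primary granule genes 1 was higher and 2 were lower (median 0.11).

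The lists of other blood lineages were read beside the same shares of all genes. Of 19 genes of mast cells, basophils and eosinophils 7 were higher and 3 lower, with Cpa3 highest and Epx lowest. Of 16 erythroid genes 6 were higher and 4 lower, of 16 megakaryocyte genes 4 and 0, of 18 dendritic cell genes 3 and 0, of 16 B lymphoid genes 5 and 1, and of 21 T and NK genes 6 and 1. After GC adjustment 2320 of all 15413 genes were higher and 1585 lower. The list counts were then 4 and 1 for mast cell, basophil and eosinophil genes, 3 and 2 for erythroid and 2 and 1 for megakaryocyte genes. They were 4 and 0 for dendritic cell, 2 and 0 for B lymphoid and 5 and 2 for T and NK genes. Without purine repeats the megakaryocyte genes had 2 and 1, beside 2378 and 2141 of 15138 genes. Il7r, the interleukin 7 receptor, had 764 normalized reads in P199L-ERG and 1315 in WT-ERG, against 537 in the empty vector, and Tox, a T cell regulator, 509 and 703 against 286. Angpt1, a ligand of the receptor TIE2 from the stem and progenitor list, had 645 and 1121 against 451, which is 1.30 on the log2 scale and 0.36 after GC adjustment.

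Genes known mainly from the nervous system showed the largest list median. Of 30 neuronal adhesion and synapse genes 10 had a primed region, and of these 7 were higher and 1 lower. Their median log2 ratio was 1.44 (0.82 after GC adjustment, 1.27 over the 8 genes left without purine repeats). Apart from Pcdh7, those with the largest ratios had 1 weak region each, such as Cntn4 with 0.931, 16.1 and 0.998 normalized reads in P199L-ERG, WT-ERG and the empty vector. Of 28 developmental targets of Polycomb 9 were higher and 1 lower (median 0.16). Of 16 endothelial genes 2 were higher and none lower, and of 17 fibroblast genes 3 were higher and 2 lower.

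Of 14 genes of the NCoR-HDAC3 complex and its relatives with a primed region 3 were higher and none lower in WT-ERG over the empty vector (median 0.20), a share close to that of all genes. After GC adjustment none was higher and 1 lower, and without purine repeats 1 was higher and none lower. Ncor1, the scaffold of the complex, had 412 normalized reads in P199L-ERG and 494 in WT-ERG, against 316 in the empty vector, Tbl1x, its WD40 subunit, 472 and 524 against 346, and Hdac9, a class IIa deacetylase, 314 and 393 against 221. Of 19 interferon response genes 7 were higher and 3 lower (median 0.47), and 4 and 3 of 17 without purine repeats (median 0.14). The single region of the neighbouring Ifit2 and Ifit3 held 2 reads in P199L-ERG, 12 in WT-ERG and none in the empty vector. Of 22 inflammatory and immediate early genes 2 were higher and 1 lower, with Il6 at 1509 and 1881 against 1088, and of 15 housekeeping genes 2 were higher and 1 lower (median -0.07).

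In P199L-ERG over the empty vector 7.37% of all genes were higher and 7.59% lower. Late neutrophil genes had 6 higher and 1 lower (median 0.20), monocyte and macrophage genes 4 and 0 (median 0.01), stem and progenitor genes 0 and 1 (median 0.11), and mast cell, basophil and eosinophil genes 4 and 1 (median 0.29). After GC adjustment the late neutrophil genes had 2 and 2, the monocyte and macrophage genes 0 and 1, beside 845 higher and 833 lower of 15413 genes. In P199L-ERG over WT-ERG, beside 7.45% higher and 15.1% lower, late neutrophil genes had 3 higher and 6 lower (median -0.11), monocyte and macrophage genes 2 and 4 (median -0.23), and Polycomb targets 0 and 7 (median -0.10). After GC adjustment these lists had 2 and 4, 2 and 3, and 1 and 4 in the same order, beside 1138 higher and 1773 lower of 15413 genes. Without purine repeats the Polycomb targets still had 0 and 7, beside 1438 and 1625 of 15138 genes. The median of the late neutrophil list was 0.01 in that pair without purine repeats. The comparisons share libraries, so their values for a list are not independent of each other.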

How the data were processed

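ChIP-seq of 5 histone marks was analysed in 15 libraries, 1 per mark and line; a pooled IgG sample was not analysed here. The authors trimmed reads with Cutadapt, kept uniquely aligned reads (bowtie, mm10), called regions with MACS2, merged them over the lines and assigned genes with GREAT. The deposited tables hold read counts per merged region, normalized reads (a signal equal to the count times 1 factor per library, whose origin is not given in the sources used here) and a call per library, deposited as a score of 0 or 1. How duplicates were treated is not given either.

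Members and gene lists were chosen with earlier results of these data known. Log2 ratios used normalized reads plus a pseudocount of 10% of the median over H3K4me1 regions (4.29), and a change was counted at 1.5-fold. The reads of a pair gave 95% exact binomial (Clopper-Pearson) intervals, computed without the pseudocount, which cover counting error only. No filter was applied, so all 59937 members have values. Gene values are sums over member regions within 200000 bp. GC adjustment centred the libraries within 20 groups of GC content and 10 of signal over all H3K4me1 regions. Named genes were, per pair, the 8 largest increases and decreases among genes with 3 or more member regions whose larger value reached the median of such values, the 10 genes with most regions, the 3 largest WT-ERG over empty vector ratios of each of 18 lists, and 20 fixed genes; named regions were the 3 largest each way among the strongest 10%. The genome matched on 21 chromosomes. Scripts were tested on simulated data (Python 3.11.15, numpy 2.4.6, pandas 2.3.3, scipy 1.17.1). Some of the marker results are not reported here.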

Additional observations from a re-analysis of the deposited data

How the results depend on the processing

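With 1 library per mark and line no replicate could be left out and no spread between replicates is known, so depth and the scaling set the limits. No paired analysis was possible because each mark and line has a single library. With a pseudocount of the whole median, primed regions past 1.5-fold numbered 5091 higher and 1745 lower in WT-ERG over the empty vector, 755 and 431 in P199L-ERG over the empty vector, and 563 and 3790 in P199L-ERG over WT-ERG (medians 0.024, 0.014 and 0.0097). Without the 25% of regions with the lowest signal they were 9283 and 7138, 5594 and 3829, and 6217 and 7200 (medians 0.039, 0.051 and 0.048). Over the 21474 primed regions called in all 3 lines they were 4047 and 2673, 2097 and 1525, and 1961 and 3121, with medians of 0.047 for WT-ERG over the empty vector and 0.0070 for P199L-ERG over WT-ERG; the last 2 settings leave fewer regions. The counts at these settings are given without the shares over all H3K4me1 regions, so they describe the primed regions alone. Scaling to the total reads inside regions gave medians of 0.075, 0.107 and 0.081. The counts were then 18295 higher and 12872 lower, 12241 and 7214, and 13899 and 14927 in the same order of pairs, also without the shares over all. The lean of the counts between P199L-ERG and each other line thus depended on the scaling. GC adjustment gave 0.0087 for WT-ERG over the empty vector and 0.0087 for P199L-ERG over the empty vector. Leaving out purine repeats, an alternative chosen after seeing the data, gave medians of -0.046 for WT-ERG over the empty vector and 0.106 for P199L-ERG over WT-ERG. Among named genes past 1.5-fold it changed the sign of Ly6c2 (-0.46) and Mindy3 (-0.28) in WT-ERG over the empty vector and Mindy3 (0.34) in P199L-ERG over WT-ERG, and GC adjustment did so for Pax3 (0.40) in P199L-ERG over WT-ERG. In that pair signs also changed below 1.5-fold, as for Ly6c2 without repeats (-0.53 with them, 0.75 without) and S100a9 after GC adjustment (-0.56 before, 0.47 after). The causes were not tested. Requiring a gap of 1 kb to other marks left every count within 1.5 times.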
